A study of Mus musculus with 4 samples.

Results

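Syt1, Syp and Vamp2 encode proteins of the synaptic vesicle, and 1 mouse transcript was listed for each of them. They were chosen by name, as lines of the count tables whose identifier was ENSMUST00000064054 (Syt1), ENSMUST00000069520 (Syp) or ENSMUST00000021273 (Vamp2). Lines were found for 2 of the 3 listed transcripts, those of Syt1 and Vamp2, among the 23175 transcripts counted in the series. ENSMUST00000069520 was not analysed here, which says nothing about the level of Syp.

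Ribosome-protected RNA fragments, called footprints, were sequenced from whole mouse brains (strain C57BL/6J, postnatal day 21). The neuron samples came from Snap25::eGFP-RpL10a mice and the astrocyte samples from Aldh1l1::eGFP-RpL10a mice, in which a GFP-tagged protein of the large ribosomal subunit is made under control of Snap25 or of Aldh1l1. Antibodies to GFP pulled down the tagged ribosomes, RNase I trimmed the RNA they held, and cycloheximide was present in the buffers. There were 2 libraries per cell type, each from 2 pooled brains and from a repeat experiment. The p-values below thus rest on the spread between libraries, in which pools and library preparations cannot be told apart. The edgeR tests also draw their estimate of spread in part from the other transcripts.

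Synaptic vesicles store neurotransmitter in nerve endings and fuse with the plasma membrane when calcium enters. Vamp2, also called synaptobrevin, is the SNARE protein of the vesicle, which zips together with syntaxin and Snap25 of the plasma membrane to drive fusion. Syt1, synaptotagmin, is the calcium sensor that couples fusion to the calcium signal. Syp, synaptophysin, is an abundant membrane protein of the vesicle that binds Vamp2. All of them are widely used as markers of neurons and of their synapses.

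The libraries held 7210269 to 12833187 counts. Each count table splits a transcript into regions named a, b, c and d, whose meaning is not given in the sources used here. Region b held 91.1% to 92.6% of all counts. The tables give no length for a transcript, so the levels of Syt1 and Vamp2 are compared between libraries and not with each other. The reference tables matched 0 transcripts to gene symbols, so no other marker gene could be looked up to check how pure the captured RNA was. By count, not corrected for length, Syt1 ranked 238 of 21866 transcripts in astrocyte 1 and 280 of 21785 in astrocyte 2. Vamp2 ranked 444 and 377 there. In neuron 1 and neuron 2 the ranks were 137 and 187 for Syt1, and 192 and 139 for Vamp2. Which cells the footprints in the astrocyte samples came from was not tested. Fewer ribosomes from a cell type and fewer footprints per cell cannot be told apart in such bulk samples.

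Vamp2 carried more footprints in the neuron samples than in the astrocyte samples, and the difference passed the test across all transcripts. The Vamp2 counts were 1989 and 2453 in astrocyte libraries 1 and 2, and 3732 and 7832 in neuron libraries 1 and 2. Scaled to a common library total (CPM), Vamp2 measured 272.7 in astrocyte 1, 307.8 in astrocyte 2, 517.6 in neuron 1 and 610.3 in neuron 2. Both neuron libraries lay above both astrocyte libraries, by 1.68-fold to 2.24-fold over the 4 pairs of libraries. The mean of Vamp2 was 290.3 ± 24.8 CPM over the astrocyte pair and 563.9 ± 65.6 CPM over the neuron pair (SD, n = 2 libraries per mean). The log2 fold change of Vamp2 was 0.84 (SE 0.163, 95% interval 0.46 to 1.21), or 1.79-fold, with an adjusted p = 0.0109 in the edgeR quasi-likelihood test. Without astrocyte 1 or astrocyte 2 the Vamp2 change was 0.75 and 0.94, and neither passed the test (edgeR adjusted p = 0.289 and 0.166). These fits took the spread from the neuron libraries only (SE 0.383 in both), and the remaining astrocyte library was taken to vary alike.

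Syt1 measured higher in the neuron libraries too, but the difference did not pass the test. The Syt1 counts were 3100 and 3074 in astrocyte libraries 1 and 2, and 4741 and 6580 in neuron libraries 1 and 2. These correspond to 425.1 CPM in astrocyte 1, 385.8 CPM in astrocyte 2, 657.5 CPM in neuron 1 and 512.7 CPM in neuron 2. The groups did not overlap for Syt1 either, and the 4 pairs of libraries gave ratios of 1.21 to 1.7. The mean of Syt1 was 405.4 ± 27.8 CPM over the astrocyte pair and 585.1 ± 102.4 CPM over the neuron pair (SD, n = 2 libraries per mean). The log2 fold change was 0.41 (SE 0.18, 95% interval -0.0029 to 0.83), or 1.33-fold, with an unadjusted p = 0.0513 and an adjusted p = 0.158 in the edgeR quasi-likelihood test. The interval includes no change, and it overlaps that of Vamp2 (0.46 to 1.21). Without neuron 1 the Syt1 change was 0.20, and without neuron 2 it was 0.61. In these fits the spread came from the astrocyte pair alone, and the remaining neuron library was taken to vary alike.

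**Figure D1:**
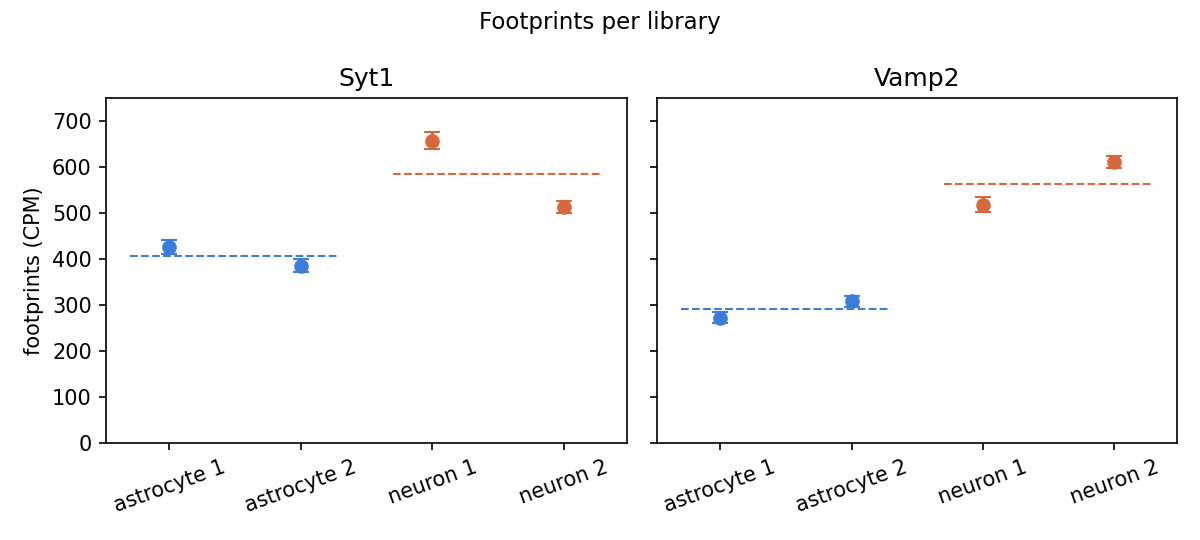
Footprints of Syt1 (left) and Vamp2 (right) in each library, in CPM. Points carry exact 95% Poisson intervals, which cover counting error only, and dashed lines are the means of the 2 libraries of a cell type. All neuron points lie above the astrocyte points of the same gene, with Syt1 higher in neuron 1 (657.5) and Vamp2 higher in neuron 2 (610.3).

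Such values have to be read against the transcripts as a whole. Of 18819 tested transcripts, 4.24% were called higher in neuron samples, and Vamp2 was 1 of these 797. The fitted change of Vamp2 was larger than that of 96.7% of the tested transcripts, and 321 of the 797 called transcripts had a larger change than Vamp2. Syt1 exceeded 83.7% of the tested transcripts. Over all these transcripts the median log2 fold change was 0.03. Having both neuron libraries above both astrocyte libraries was common, since 40.2% of the tested transcripts showed it in CPM. The separation of the groups for Syt1 is thus a pattern that many transcripts share, and that of Vamp2 likewise.

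**Figure D2:**
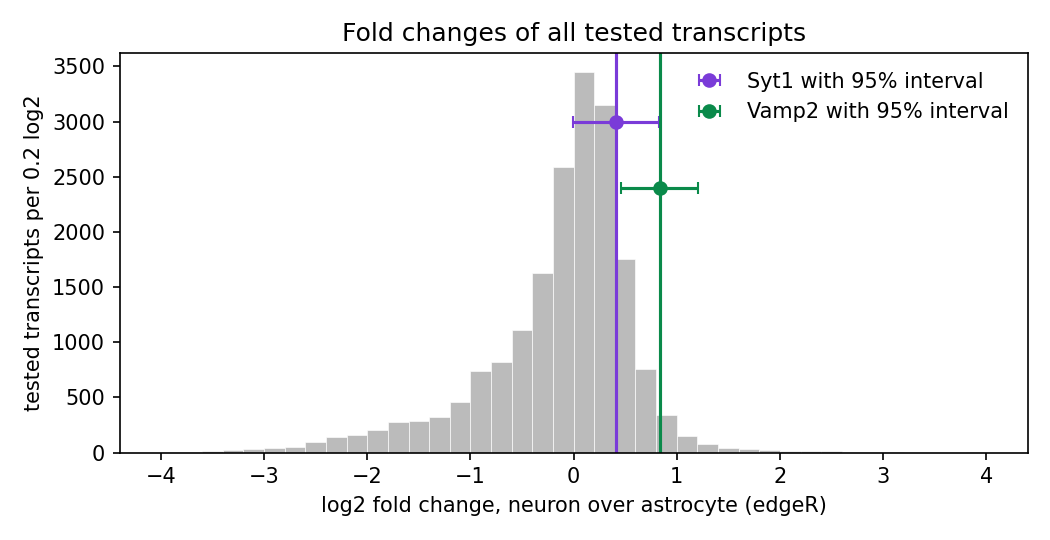
Number of tested transcripts by log2 fold change, neuron over astrocyte, in bins of 0.2, with values beyond 4 in either direction counted in the end bins. Vertical lines and points mark Syt1 at 0.41 and Vamp2 at 0.84, and the horizontal bars are their 95% intervals. The interval of Syt1 reaches to just below 0 and that of Vamp2 starts at 0.46.

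Syt1 and Vamp2 ranked the neuron libraries in opposite order. Syt1 was 1.28-fold higher in neuron 1 than in neuron 2, while Vamp2 was 1.18-fold higher in neuron 2 than in neuron 1. The exact 95% Poisson intervals, which cover counting error only, were 638.9 to 676.5 CPM and 500.4 to 525.3 CPM for Syt1 in neuron 1 and neuron 2. For Vamp2 they were 501.1 to 534.5 CPM and 596.9 to 624 CPM. Both gaps exceeded counting error. With 1 library per pool, differences between pools cannot be told apart from differences between library preparations. Among the 797 transcripts called higher in neuron samples, 83.6% measured higher in neuron 2 than in neuron 1, as Vamp2 did. Over all tested transcripts this share was 53.5%. Between the astrocyte libraries the order was opposite as well, with Syt1 1.1-fold higher in astrocyte 1 and Vamp2 1.13-fold higher in astrocyte 2.

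The ratio of Syt1 to Vamp2 counts within a library needs no scaling between libraries. It was 1.56 and 1.25 in astrocyte 1 and astrocyte 2, and 1.27 and 0.84 in neuron 1 and neuron 2. The groups overlapped, because neuron 1 lay just above astrocyte 2. With region b counts alone neuron 1 lay just below astrocyte 2, so that the groups separated (exact permutation p = 0.33). On the log2 scale the ratio was 0.05 ± 0.422 over the neuron pair and 0.48 ± 0.222 over the astrocyte pair (SD, n = 2 libraries per mean), a difference of -0.44. The two-sided exact permutation p was 0.667, where 2 against 2 libraries cannot go below 0.33. The difference was -0.28 without astrocyte 1, -0.59 without astrocyte 2, -0.73 without neuron 1 and -0.14 without neuron 2. A difference between the neuron to astrocyte changes of Syt1 and Vamp2 was thus not shown. This was the only such pair that could be formed.

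Region b carried most of the footprints of both transcripts, and region a most of the rest. In the order astrocyte 1, astrocyte 2, neuron 1 and neuron 2, the region b counts of Syt1 were 2804, 2784, 4344 and 6032. Those of Vamp2 were 1803, 2183, 3409 and 7092. With region b counts alone, the log2 fold changes were 0.41 for Syt1 (edgeR adjusted p = 0.174) and 0.83 for Vamp2 (edgeR adjusted p = 0.0114).

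Region a held more of the footprints of Syt1 and Vamp2 than of all transcripts together in every library. In the same order of libraries, the region a counts of Syt1 were 291, 283, 388 and 535. They made up 9.39% and 9.21% of the Syt1 counts in the astrocyte libraries, with exact 95% binomial intervals of 8.38% to 10.5% and 8.21% to 10.3%. In the neuron libraries the Syt1 shares were 8.18% and 8.13%, with intervals of 7.42% to 9.0% and 7.48% to 8.82%. The Syt1 shares were 1.12 to 1.21 times those of the whole libraries, which were 7.77%, 8.21%, 6.99% and 6.75% in that order.

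The region a counts of Vamp2, again from astrocyte 1 to neuron 2, were 176, 254, 307 and 702. Their shares of the Vamp2 counts were 8.85% (interval 7.64% to 10.2%) in astrocyte 1 and 10.4% (9.18% to 11.6%) in astrocyte 2. They were 8.23% (7.36% to 9.15%) in neuron 1 and 8.96% (8.34% to 9.62%) in neuron 2. These shares were 1.14 to 1.33 times those of the whole libraries, and only in astrocyte 1 did the interval include the whole-library value. Over the 4 libraries together, region a reached 9.38% of region b for Syt1 and 9.93% for Vamp2. These levels were above those of 75.1% and 76.6% of the 7382 well-counted transcripts (1000 or more region b counts), whose median was 4.24%.

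The region a shares of both genes measured lower in neuron than in astrocyte samples, by an amount near that of the typical transcript. Syt1 had 9.3% ± 0.128 over the astrocyte pair and 8.16% ± 0.0376 over the neuron pair (SD, n = 2 libraries per mean), and its groups did not overlap. The two-sided exact permutation p for Syt1 was 0.33, the smallest possible. The whole-library shares of region a separated in the same direction, at 7.77% and 8.21% in astrocyte against 6.99% and 6.75% in neuron libraries. How many transcripts separate in this way by their region a share was not counted. Vamp2 had 9.6% ± 1.06 over the astrocyte pair and 8.59% ± 0.521 over the neuron pair (SD, n = 2 libraries per mean), and its groups overlapped, because astrocyte 1 lay below neuron 2 (exact permutation p = 0.667). In the edgeR test of region a relative to region b, the log2 change from astrocyte to neuron was -0.21 for Syt1 (SE 0.212, 95% interval -0.63 to 0.22, adjusted p = 0.744). For Vamp2 it was -0.18 (SE 0.218, 95% interval -0.61 to 0.26, adjusted p = 0.8). Neither ratio passed the test, which called 1.08% of 8778 transcripts.

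The median log2 change of the region a ratio over all 8778 transcripts was -0.215, so Syt1 and Vamp2 lay close to the middle, above 50.6% and 53.8% of the transcripts. With each region scaled to its own total, which takes out the shift common to all transcripts, the median turned to 0.03, and the changes of Syt1 and Vamp2 turned to 0.03 and 0.06. Library totals cancel in a ratio of regions of the same library, so the main fit compares the plain ratios. For Syt1, region a was 10.4% and 10.2% of region b in astrocyte against 8.93% and 8.87% in neuron libraries. For Vamp2 it was 9.76% and 11.6% against 9.01% and 9.9%, which overlap. Only relative to the shift common to all transcripts did the direction turn for these genes.

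**Figure D3:**
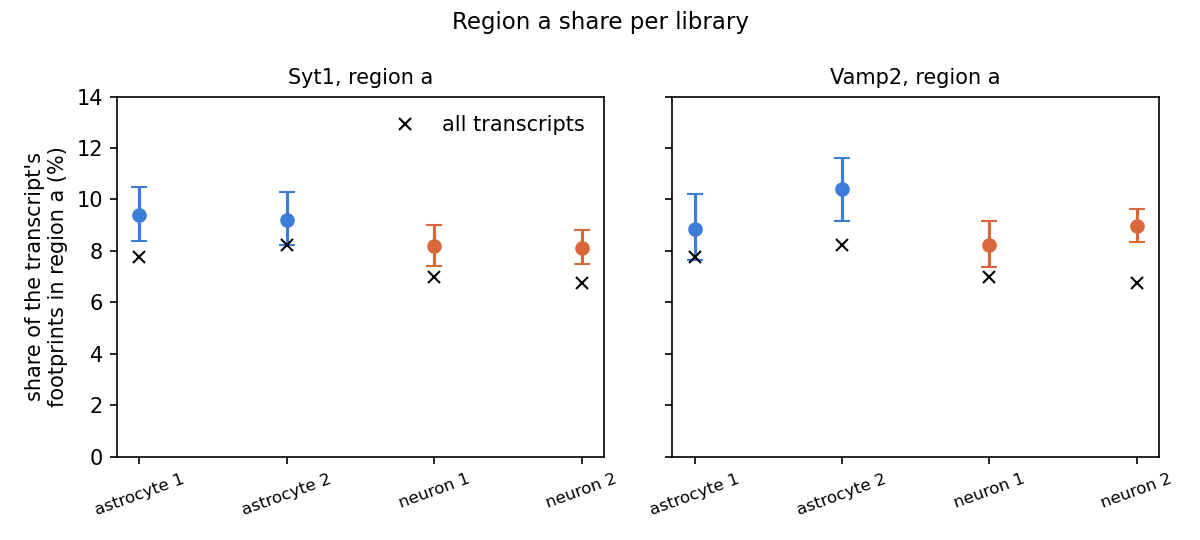
Share of the footprints of Syt1 (left) and Vamp2 (right) that lay in region a, in percent, per library, with exact 95% binomial intervals. Crosses mark the share of region a in the whole library, and every point lies above its cross. The Syt1 points are at 9.39% and 9.21% for the astrocyte and at 8.18% and 8.13% for the neuron samples, while the Vamp2 points of the cell types overlap.

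Region d held few footprints of either gene. Syt1 had 5, 6, 9 and 11 region d counts in astrocyte 1, astrocyte 2, neuron 1 and neuron 2, which is 0.161%, 0.195%, 0.19% and 0.167% of its counts. These shares did not separate the cell types (exact permutation p = 1.0). They lay below the whole-library shares of 0.443% to 0.482% in all 4 libraries, with upper bounds of the exact 95% binomial interval of 0.299% to 0.424%. The Syt1 region d counts did not pass the filter for the ratio test, so that ratio was not tested.

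Vamp2 had 10, 16, 12 and 32 region d counts in the same order of libraries. The shares were 0.503% (interval 0.241% to 0.923%) in astrocyte 1 and 0.652% (0.373% to 1.06%) in astrocyte 2. They were 0.322% (0.166% to 0.561%) in neuron 1 and 0.409% (0.28% to 0.576%) in neuron 2. The astrocyte shares lay above the neuron shares (exact permutation p = 0.33, the smallest possible), but the intervals of all 4 libraries overlapped and each included the whole-library value. How many transcripts separate in this way by their region d share was not counted. In the edgeR test of region d relative to region b, the log2 change of Vamp2 was -0.65 (SE 0.409, 95% interval -1.56 to 0.25, adjusted p = 0.52). The test called 0.184% of the 544 transcripts with enough region d counts, and Vamp2 was not among them. Against region b over all libraries, region d reached 0.483% for Vamp2 and 0.194% for Syt1, higher than in 87.4% and 68.9% of the 7382 well-counted transcripts, whose median was 0.0944%.

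Region c was close to empty for both genes. Syt1 had 0, 1, 0 and 2 region c counts, again from astrocyte 1 to neuron 2. Vamp2 had 0 region c counts in both astrocyte libraries, 4 in neuron 1 and 6 in neuron 2. Over the astrocyte libraries, 0 of 4442 Vamp2 counts allows a share of up to 0.0675% with 3 counts as the limit, or up to 0.083% by the exact 95% binomial interval. Over the neuron libraries, 10 of 11564 Vamp2 counts is a share of 0.0865% (exact 95% binomial interval 0.0415% to 0.159%). These intervals, which cover counting error only, overlapped between the cell types, and region c was not tested. The whole-library share of region c, 0.218% to 0.252%, lay above the upper bound for Syt1 in all 4 libraries, and above that for Vamp2 in all but neuron 1. Against region b over all libraries, however, region c reached 0.069% for Vamp2 and 0.0188% for Syt1. These levels were above those of 60.6% and 44.2% of the 7382 well-counted transcripts, whose median was 0.0386%.

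**Figure D4:**
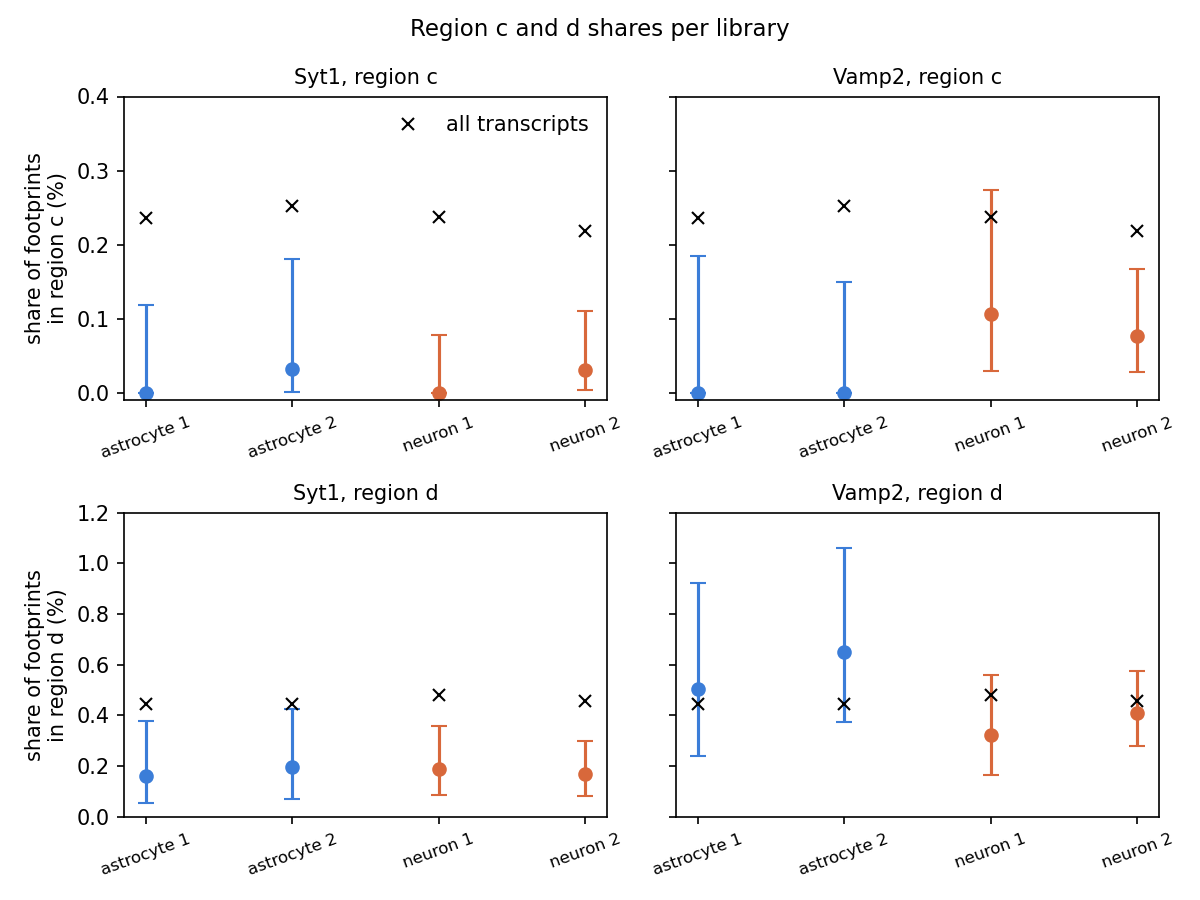
Shares of the footprints of Syt1 (left column) and Vamp2 (right column) in region c (upper row) and region d (lower row), in percent, per library, with exact 95% binomial intervals. Crosses mark the share of the region in the whole library. Region c of Vamp2 is at 0 in both astrocyte libraries, and region d of Vamp2 measures 0.503% and 0.652% in astrocyte against 0.322% and 0.409% in neuron libraries.

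Other transcripts carried nearly the same counts as these. ENSMUST00000105276, identified after its values were seen, had the same region b, c and d counts as Syt1 in all 4 libraries, and differed from it only in region a. There it had 291, 280, 387 and 539 counts, against 291, 283, 388 and 535 for Syt1, in astrocyte 1, astrocyte 2, neuron 1 and neuron 2. The values given for Syt1 therefore cannot be told apart from those of this other identifier. For Vamp2, 0 other transcripts had the same region b counts, but those of ENSMUST00000117780 came close. They were 1770, 2146, 3333 and 6926, against 1803, 2183, 3409 and 7092 for Vamp2. Its log2 fold change was 0.834 (edgeR adjusted p = 0.0111). The level and fold change given for Vamp2 are thus nearly those of this identifier as well.

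The pattern over the 4 libraries was compared with that of other transcripts by the largest gap in log2 TMM-scaled CPM, after each transcript was centred on its own mean. The closest to Vamp2 among 611 transcripts with a mean level within 2-fold was ENSMUST00000117780, at a distance of 0.0045. It measured 268.3, 302.1, 506.4 and 599.3 CPM in astrocyte 1, astrocyte 2, neuron 1 and neuron 2, so its level was also nearly that of Vamp2. Within a distance of 0.2 there were 26 transcripts for Vamp2, or 4.26% of those compared. For Syt1 there were 77 of 512, or 15.0%, with the closest at 0.0107. Transcripts with the same region b counts, such as ENSMUST00000105276 for Syt1, were left out of this comparison. Syt1 and Vamp2 themselves lay 0.516 apart.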

How the data were processed

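The authors deposited raw whole-number counts of footprints for each region of a transcript, and a region with no line was read as 0. Per the submitters' processing notes, STAR 2.3.1z8 and Bowtie2 2.2.2 were among the tools, beside Trimmomatic 0.32, FastQC 0.11.2, edgeR and bedtools. Not given in the sources used here are the genome build, annotation, strand setting and handling of fragments that match several transcripts.

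Gene names of the 3 listed transcripts came with the list itself. Members and lists were chosen with earlier results of these data known. Lists of other vesicle genes and of cell type markers could not be used, since 0 transcripts matched a symbol.

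Counts of the 4 regions were summed per transcript. Transcripts passing filterByExpr (minimum count 10) were tested with edgeR 4.0.16 in R 4.3.3 (quasi-likelihood F test, TMM factors, cell type as the only term) and p-values adjusted over all tested transcripts by Benjamini-Hochberg, with a threshold of 0.05. Each standard error is the size of the log2 change over √F, and 95% intervals use the test's degrees of freedom. Region ratios were tested in a model with library, region and region by cell type, using library totals for both regions. CPM are scaled by library totals without TMM factors. The design planned tests for Syp and for region d of Syt1, which had no line and too few counts. Both edgeR tests were also run on simulated counts, drawn with the same spread for every transcript, and the outcome is not given here. Alternatives were library totals, DESeq2 1.42.0, other filters, region b alone, merged repeats, a replicate block and leaving out each library. Members, the closest patterns and any identifier stated as seen afterwards are the transcripts named.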

Additional observations from a re-analysis of the deposited data

How the results depend on the processing

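Vamp2 kept its direction and passed the test in 9 of 11 alternatives, the exceptions being the fits without an astrocyte library. Its log2 fold change lay between 0.74 and 0.94 with 1 library left out. Syt1 kept its direction in 11 of 11 alternatives and stayed short of the threshold in 9, the exceptions being the fits without a neuron library. Its change lay between 0.201 and 0.605 with 1 library left out. Library totals alone gave Syt1 0.53 (edgeR adjusted p = 0.0726) and moved the median of all transcripts from 0.03 to 0.147. Over all transcripts 3219 were called. With 1 library left out there were 1523 to 8958 calls, of which 166 to 4194 were higher in neuron samples. Library totals gave 1506 calls higher in neuron samples, and a mean of at least 10 CPM gave 460, against 797.

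No label says that replicate numbers pair the libraries, and libraries with the same number deviated from their group means with r = -0.0814 across transcripts. The replicate block gave 0.40 for Syt1 and 0.84 for Vamp2 and 3416 calls, and changed neither call.

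With each region's own total the region a ratios turned to 0.0291 for Syt1 and 0.0621 for Vamp2, and called ratios fell from 95 to 12. DESeq2 called 10, and leaving out 1 library gave 1 to 207. The Vamp2 region d ratio kept its direction in 8 of 8 alternatives, with the mean count filter of 20 leaving it untested. The log2 ratio of Syt1 to Vamp2 kept its direction in 5 of 5, at -0.734 to -0.138 with 1 library left out. Causes were not tested. The low counts of regions c and d limit what they can show.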

Other observations

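A transcript with nearly the region a and b counts of Vamp2 differed from it in regions c and d. ENSMUST00000117780, the transcript closest to Vamp2 in pattern, had 1770, 2146, 3333 and 6926 region b counts, from astrocyte 1 and 2 to neuron 1 and 2, slightly fewer than Vamp2 in each library. Its region a counts of 172, 251, 298 and 697 were also slightly fewer. Region c held 0 counts in all 4 libraries, where Vamp2 had 4 and 6 in the neuron libraries. Region d held 15, 10, 20 and 68 counts, against 10, 16, 12 and 32 for Vamp2. The log2 change of its region d ratio was 0.36 (SE 0.42, edgeR adjusted p = 0.769), opposite in sign to the -0.65 of Vamp2, and neither passed the test. The difference between these ratios was not tested. The files do not pair this identifier with a gene.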
